A study of Mus musculus with 9 samples.

Results

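The genes of cholesterol and fatty acid synthesis were followed in duodenal organoids that overexpressed a hypoxia-inducible factor. The list holds 35 genes, matched by symbol among the 46517 genes of each expression table, and all 35 were found. By role they are 5 sensors and regulators, 7 genes of the mevalonate arm, 11 of the route from farnesyl pyrophosphate to cholesterol, 1 sterol carrier, 4 of fatty acid synthesis and 7 of fatty acid elongation and desaturation. Genes were put on the list by pathway membership, with earlier results of these data known.

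RNA sequencing covered 9 organoid cultures from wild-type C57BL/6 mice, with 3 cultures in each of 3 groups. Crypts of the duodenum were grown in Matrigel with L-WRN conditioned media, which supplies Wnt3a, R-spondin 3 and noggin, and dissociated cells were transduced with an adenovirus before they were reseeded. Ad-GFP carried green fluorescent protein only and was the control, Ad-hHIF2 carried human HIF2, and Ad-hHIF1 (labelled Adeno-HhHIF1) carried human HIF1. Both human factors were mutant forms in which prolines are replaced by alanines, so that the cell no longer breaks them down, and they were expressed only for a time. Every group, the control included, carried virus and was cultured at reduced oxygen. The study calls the 3 cultures of a group biological replicates. The labels do not say which mouse each culture came from, so p-values measure the spread between these cultures.

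Cells build cholesterol from acetyl-CoA through mevalonate, farnesyl pyrophosphate, squalene and lanosterol. The transcription factors SREBP1 and SREBP2 switch on the genes of this route and of fatty acid synthesis. When sterols are scarce, the escort protein SCAP carries them from the endoplasmic reticulum to the Golgi, where proteases release the active factor, and INSIG proteins hold SCAP back when sterols are plentiful. Absorptive cells of the small intestine make cholesterol and fatty acids themselves and package them with dietary lipid into lipoproteins. HIF1 and HIF2 bind hypoxia response elements in the DNA around their target genes.

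Promoters of the members were searched for the letters that these factors are known to bind, and the windows below are shown because, among the genes that passed the test under HIF2, they belong to those with the largest changes that hold a match to the sterol element or a hypoxia core. Lss, which passed with a smaller change, also has a window with a hypoxia core. So do Scap, Insig2, Acat2, Idi1, Cyp51, Msmo1, Hsd17b7, Sc5d, Dhcr7, Acly, Acacb, Fasn and Elovl5, which did not pass. Their windows are not shown, and a core does not set the genes that passed apart. RefSeq promoter windows on GRCm38.p6 matched 28 of the 35 members, with 37 windows in all. Fads1, Fdft1, Fdps, Scd1, Scd2, Sqle and Stard4 have no window. The 250 bases before each start site were searched on both strands for TCACNCCAC, a sterol regulatory element, for CCAAT, the box bound by NF-Y, and for ACGTG and GCGTG, the core letters of hypoxia response elements. ACGTG overlaps itself on the opposite strand wherever CACGTG occurs, and such a place counts as a match on each strand. The sterol element was found in 1 of the 37 member windows (2.7%), that of Hmgcs1, and in 1.05% of all 32851 windows. CCAAT was in 62.2% of member windows and in 33.8% of all windows. ACGTG was in 21.6% of member windows and in 16.6% of all, and GCGTG was in 45.9% and 28.2%. These shares are a description of letters in a short window and show no binding.

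In the windows below, capitals mark matches to the sterol element or to a hypoxia core, which reads CACGC or CACGT where the match is on the opposite strand. The window of Nsdhl is chrX:72918271-72918520 on the plus strand, with GCGTG matches that begin 238 and 132 bases before the start. The window of Hmgcs1 is chr13:119690101-119690350 on the plus strand, with the sterol element 137 bases before the start. The window of Mvd is chr8:122443423-122443672 on the minus strand, with GCGTG 11 bases before the start. For Insig1, 201 bases are shown, chr5:28071162-28071362 on the plus strand, and the 49 bases nearest to the RefSeq start are left out because GENCODE M21 places them inside the gene.
Nsdhl: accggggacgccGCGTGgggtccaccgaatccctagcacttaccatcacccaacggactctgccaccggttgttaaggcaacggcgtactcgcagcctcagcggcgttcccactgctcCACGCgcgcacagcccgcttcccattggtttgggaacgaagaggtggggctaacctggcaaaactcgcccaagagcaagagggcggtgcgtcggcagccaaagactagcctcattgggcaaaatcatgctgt
Hmgcs1: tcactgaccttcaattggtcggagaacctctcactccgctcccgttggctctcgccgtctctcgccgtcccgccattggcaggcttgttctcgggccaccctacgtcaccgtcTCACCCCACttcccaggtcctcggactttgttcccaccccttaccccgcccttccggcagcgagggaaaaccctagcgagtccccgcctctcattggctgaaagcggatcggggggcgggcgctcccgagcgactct
Mvd: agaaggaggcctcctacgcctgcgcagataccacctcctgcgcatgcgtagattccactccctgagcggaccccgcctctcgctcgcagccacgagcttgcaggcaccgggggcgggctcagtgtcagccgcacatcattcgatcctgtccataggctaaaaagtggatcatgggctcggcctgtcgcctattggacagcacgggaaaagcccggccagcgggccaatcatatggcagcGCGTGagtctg
Insig1: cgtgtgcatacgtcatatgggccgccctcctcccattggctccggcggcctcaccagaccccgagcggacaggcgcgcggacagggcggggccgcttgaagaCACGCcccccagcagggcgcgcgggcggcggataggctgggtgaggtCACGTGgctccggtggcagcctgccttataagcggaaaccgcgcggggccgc
The Insig1 bases shown hold GCGTG 148 bases before the start and CACGTG, which is read as ACGTG on both strands and begins 101 bases before it. Its whole window counts 3 ACGTG and 2 GCGTG matches, so further cores lie toward the start, outside the 201 bases. The Hmgcs1 window holds no hypoxia core, and the windows of Nsdhl, Mvd and Insig1 hold no sterol element.

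The libraries held 21722618 to 51119041 expected counts, the estimated number of reads per gene, and the members took 0.0926% to 0.156% of them. The small cytoplasmic RNAs Rn7s1 and Rn7s2 took 12.5% to 21.8% of the counts and were lowest in Ad-hHIF2 replicate 1. Gm10800 and Gm26870, whose sequence is satellite-like, made up 16% of Ad-hHIF1 replicate 3 and at most 4.28% of any other library. Epas1, the mouse gene for HIF2, was at 1.77 ± 0.382 CPM (reads scaled to library size) in Ad-GFP and 672.1 ± 78.14 in Ad-hHIF2 (SD, n = 3 each). Hif1a was at 219.7 ± 28.01 CPM in Ad-GFP and 309 ± 9.96 in Ad-hHIF1, with a log2 fold change of 0.49 that did not pass the test (edgeR quasi-likelihood, adjusted p = 0.486). The files do not say how reads from the human transgenes were assigned to these mouse genes. The paper reports HIF overexpression after transduction by western blot and qRT-PCR. Of the markers of crypt and villus cells, Olfm4 was at 0 in 8 of the 9 libraries, Lgr5 lay between 0 and 1.19 CPM and Fabp1 was at 0 in 8 libraries. Cdx1 was at 0 in all 9 and Epcam at 1.42 to 3.8 CPM, while Cdx2 was at 6.55 to 8.99 and Krt8 at 1022 to 1358 CPM. These last 4 genes, with other epithelial and intestinal genes given below, were looked up after the other markers had been seen.

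Under HIF2, 6 genes along the cholesterol route rose and 3 genes of fatty acid synthesis and sterol sensing fell, all by less than 2-fold. Of the 35 members, 6 were higher in Ad-hHIF2 than in Ad-GFP (17.1%), 3 were lower (8.57%) and 26 did not pass at an adjusted p below 0.05 (edgeR quasi-likelihood test, Benjamini-Hochberg over 14987 genes). Of all genes tested, 15.9% were higher and 13.6% lower, together 29.5%, so the share of members called in either direction (25.7%) was near that of genes at large. With libraries scaled by total counts only, 13 members were higher and 0 lower. That scaling moved the median of all genes to 0.24. It called 4319 genes in either direction, against 4416 before, and the shares above do not apply to it. In the fit with 6 members higher, the median log2 fold change of the members was 0.18, against -0.01 over all genes tested. With a change of at least 2-fold also required, 0 members passed, against 6.73% of all genes. In 13 members the 3 Ad-hHIF2 cultures all lay above the 3 Ad-GFP cultures, and in 4 they all lay below. The same held for 23.4% and 22.4% of all genes tested. Without Ad-hHIF2 replicate 1, the library lowest in Rn7s1 and Rn7s2, 6 members were higher and 2 lower. That fit called 3130 of 15791 genes in either direction, so the shares above do not apply to it either. With 3 cultures a group, the smallest 2-sided p of an exact permutation test on a single gene is 0.10, so the calls rest on the spread that edgeR shares across genes. In bulk RNA, fewer cells of a type and less RNA per cell cannot be told apart.

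**Figure D1:**
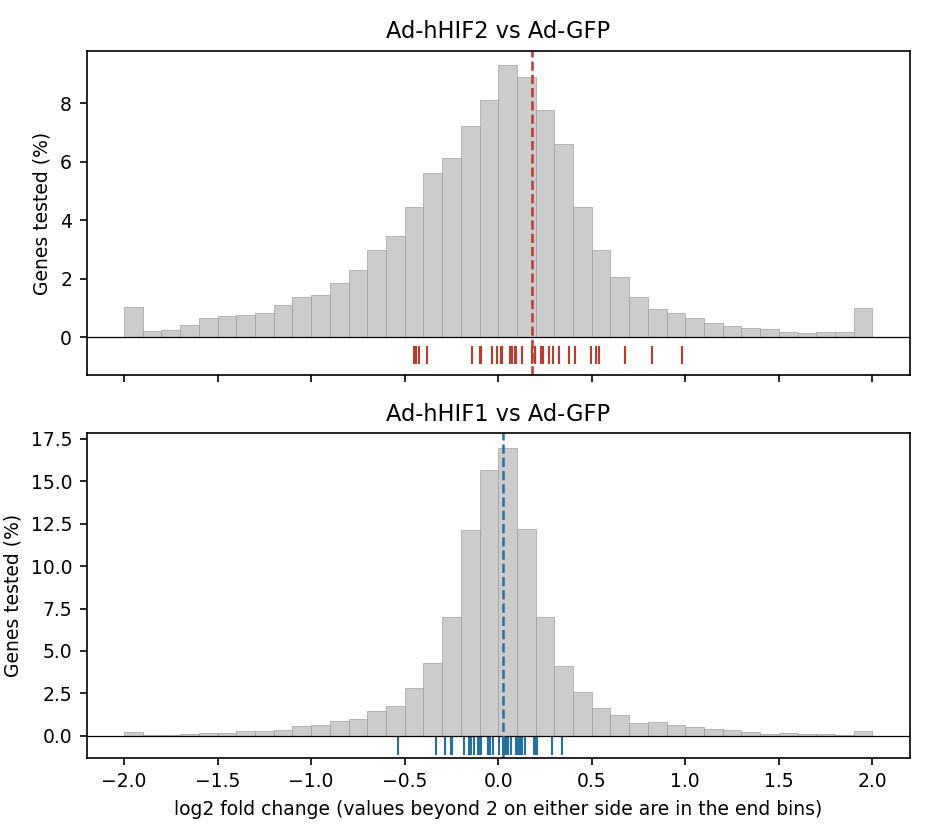
Share of genes tested (grey bars, percent) by log2 fold change over Ad-GFP in steps of 0.1, for Ad-hHIF2 (top) and Ad-hHIF1 (bottom). Ticks under the axis are the 35 members and the dashed line is their median, 0.18 for Ad-hHIF2 and 0.03 for Ad-hHIF1. The Ad-hHIF2 ticks spread from -0.45 to 0.98.

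The sensors and regulators did not move as 1 block. Insig1, which retains SCAP in the endoplasmic reticulum, was at 41.6, 41.8 and 41.7 CPM in Ad-GFP replicates 1, 3 and 4, and at 31.7, 33 and 28.2 CPM in Ad-hHIF2. Each Ad-hHIF2 culture lay below each control culture, and Insig1 fell by 0.43 on the log2 scale (SE 0.0751, adjusted p = 0.00361). Its paralog Insig2 was at 15.4, 18.9 and 11.8 CPM in Ad-GFP and at 19, 17.3 and 12.8 CPM in Ad-hHIF2, with overlapping groups (log2 fold change 0.09, adjusted p = 0.738).

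Srebf2, the gene for SREBP2, was at 58.1, 57.6 and 58.4 CPM in Ad-GFP and at 64.4, 66.2 and 82 CPM in Ad-hHIF2. The groups did not overlap, but the log2 fold change of 0.29 missed the threshold (SE 0.101, adjusted p = 0.0581). Srebf2 passed under 5 of the 16 alternatives run, with adjusted p from 0.00874 with no count filter to 0.235 on log2(TPM + 1). Srebf1, the gene for SREBP1, was at 60.1, 56.1 and 43 CPM in Ad-GFP and at 60.8, 64.4 and 57 CPM in Ad-hHIF2, and the groups overlapped (log2 fold change 0.20, adjusted p = 0.25). Scap was at 21.3, 18.7 and 18.8 CPM in Ad-GFP and at 19.8, 19.5 and 20 CPM in Ad-hHIF2, and the groups overlapped (log2 fold change 0.02, SE 0.0809, adjusted p = 0.899). With 1 culture left out, Srebf2 ran from 0.18 to 0.38 and Srebf1 from 0.07 to 0.30 in log2 units. Scap ran from -0.02 to 0.09 and Insig2 from -0.05 to 0.26 in those fits.

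In the mevalonate arm, 3 of 7 genes rose and none fell, against 15.9% higher and 13.6% lower of all genes tested. Hmgcs1, which makes HMG-CoA at the entry to the arm and whose promoter holds the sterol element shown above, was at 28.9, 26.9 and 22.8 CPM in Ad-GFP and at 39.6, 37 and 36.2 CPM in Ad-hHIF2. All Ad-hHIF2 cultures were above all controls, a change of 1.43-fold (log2 fold change 0.52, SE 0.0924, adjusted p = 0.0037). Mvd, the decarboxylase that makes isopentenyl pyrophosphate, was at 10.4, 10.3 and 7 CPM in Ad-GFP and at 12.1, 13.5 and 13.5 CPM in Ad-hHIF2. It rose 1.41-fold (log2 fold change 0.50, SE 0.149, adjusted p = 0.0362), and Ad-GFP replicate 4 was the lowest library. Fdps, farnesyl pyrophosphate synthase, was at 28.5, 27.2 and 27.9 CPM in Ad-GFP and at 31.6, 34.9 and 34.2 CPM in Ad-hHIF2. The groups were apart and the rise was 1.21-fold (log2 fold change 0.27, SE 0.0719, adjusted p = 0.0215). The calls of Mvd and Fdps were lost when some single cultures were left out, with adjusted p up to 0.103 for Mvd and 0.0913 for Fdps, both without Ad-hHIF2 replicate 3.

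The other 4 genes of the arm did not pass. Acat2, which joins acetyl-CoA units, had a log2 fold change of 0.38 with groups apart (adjusted p = 0.0803), and passed under 2 of the 16 alternatives. Mvk and Pmvk, the kinases of mevalonate, had 0.20 and -0.10, and the isomerase Idi1 had -0.03.

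From farnesyl pyrophosphate to cholesterol, 3 of 11 genes rose and none fell, again against 15.9% and 13.6% of all genes. Sqle, squalene epoxidase and the second control point of the route, was at 18.7, 19.5 and 18.6 CPM in Ad-GFP and at 31, 30.9 and 28.6 CPM in Ad-hHIF2. The lowest Ad-hHIF2 culture stood well above the highest control, and Sqle had the smallest adjusted p of the members (1.60-fold, log2 fold change 0.68, SE 0.0702, adjusted p = 0.000223). Lss, which closes the ring of lanosterol, was at 25.6, 26.4 and 24.9 CPM in Ad-GFP and at 33.2, 31.5 and 31.4 CPM in Ad-hHIF2. It rose 1.25-fold with the groups apart (log2 fold change 0.33, SE 0.0647, adjusted p = 0.00632).

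Nsdhl, a dehydrogenase that helps remove the methyl groups at carbon 4 of the sterol, had the largest fold change of the members. It was at 2.95, 2.44 and 2.35 CPM in Ad-GFP and at 5.05, 4.16 and 6.15 CPM in Ad-hHIF2, 1.97-fold higher (log2 fold change 0.98, SE 0.205, adjusted p = 0.00791). Nsdhl is weakly expressed, with 47 to 221 expected counts a library, and the 3 Ad-hHIF2 cultures differed among themselves by more than the controls did. Msmo1, which acts in the same demethylation, was at 37.9, 43.5 and 28.1 CPM in Ad-GFP and at 50.7, 50.4 and 44.5 CPM in Ad-hHIF2. Its groups were apart and its log2 fold change was 0.41, just short of the threshold (adjusted p = 0.0539), which it passed under 6 of the 16 alternatives. Hsd17b7, the ketoreductase of that complex, had -0.44 with overlapping groups (adjusted p = 0.13).

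The remaining 6 genes of this stretch, Fdft1, Cyp51, Tm7sf2, Ebp, Sc5d and Dhcr7, had log2 fold changes between -0.14 and 0.24, and none passed. Stard4, a carrier that moves cholesterol between membranes, had 0.54 with overlapping groups (adjusted p = 0.122). Stard4 passed under 3 of the 16 alternatives, Fdft1, whose groups were apart, under 2, and Sc5d under 1. Summed over the 18 genes from Acat2 to Dhcr7, the level was 235.3 to 256.4 CPM in Ad-GFP, 296.4 to 309.2 in Ad-hHIF2 and 240.4 to 252.8 in Ad-hHIF1. The Ad-hHIF2 sums lay above all others, and the Ad-hHIF1 sums lay within the control range.

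**Figure D2:**
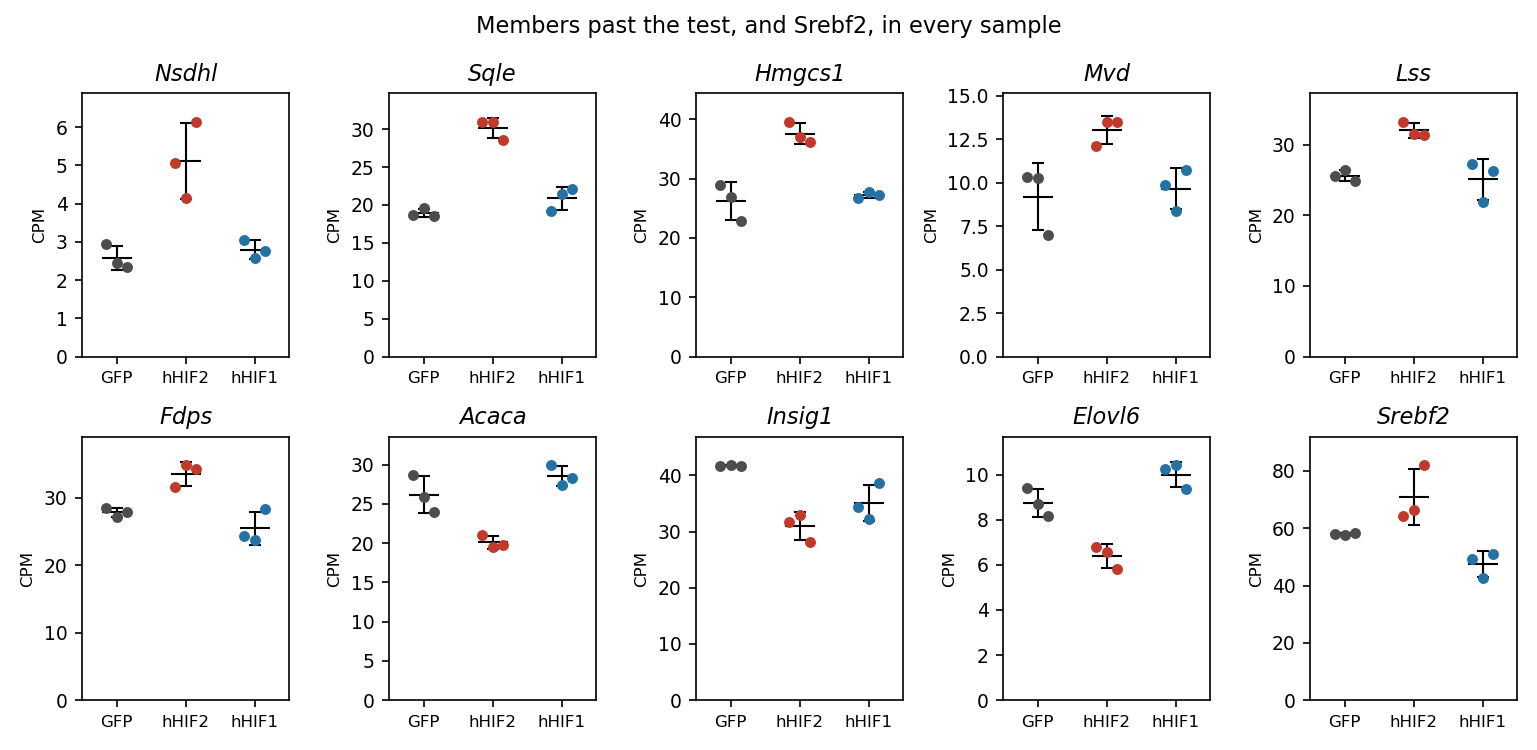
CPM in every culture (points) for the 9 members past the test in Ad-hHIF2 against Ad-GFP, and for Srebf2, with the group mean and SD (n = 3) as bars and axes from 0. Sqle lies between 18.6 and 19.5 CPM in Ad-GFP and between 28.6 and 31 CPM in Ad-hHIF2.

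In fatty acid synthesis, 1 of 4 genes fell and none rose, where 13.6% of all genes fell and 15.9% rose. Acaca, the acetyl-CoA carboxylase that commits carbon to fatty acids, was at 28.7, 25.9 and 24 CPM in Ad-GFP and at 21.1, 19.6 and 19.7 CPM in Ad-hHIF2. Each Ad-hHIF2 culture lay below each control, and Acaca fell by 0.38 on the log2 scale (SE 0.0844, adjusted p = 0.0107). Its call was lost without Ad-hHIF2 replicate 3 (adjusted p = 0.052). Acacb, the carboxylase at the mitochondrial surface whose product limits fatty acid oxidation, was far less abundant, at 2.35, 2 and 4.05 CPM in Ad-GFP and 4.02, 4.79 and 5.72 CPM in Ad-hHIF2. Its highest control lay within the Ad-hHIF2 range and its log2 fold change of 0.82 missed the threshold (adjusted p = 0.0563). Acacb was called higher under 9 of the 16 alternatives, among them DESeq2, limma-voom, both TPM scales and the fit without Ad-GFP replicate 4. Acly, which supplies cytosolic acetyl-CoA, was at 65.8 ± 2.03 CPM in Ad-GFP and 75.1 ± 3.65 in Ad-hHIF2 (log2 fold change 0.20, adjusted p = 0.0725). It passed under 1 of the 16 alternatives. Fasn, fatty acid synthase itself, was at 70.6 ± 3.98 and 66.1 ± 0.586 CPM (log2 fold change -0.09, adjusted p = 0.373).

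Among the elongases and desaturases, 1 of 7 fell and none rose, with the same 13.6% and 15.9% over all genes. Elovl6, which lengthens palmitate to stearate, was at 9.4, 8.7 and 8.15 CPM in Ad-GFP and at 6.81, 6.55 and 5.82 CPM in Ad-hHIF2. The groups were apart and Elovl6 fell by 0.45 on the log2 scale (SE 0.117, adjusted p = 0.0204), a call that was lost in 5 of the 6 fits that left out 1 culture (adjusted p up to 0.0788). Scd2, a stearoyl-CoA desaturase, was at 257.3, 246.4 and 234.1 CPM in Ad-GFP and at 309.7, 281.4 and 277.9 CPM in Ad-hHIF2. Scd2 was apart in every culture and missed the threshold narrowly (log2 fold change 0.24, adjusted p = 0.051), and it passed under 5 of the 16 alternatives. Scd1, whose sequence is close to that of Scd2, was at 100.4 ± 14.7 and 99.5 ± 9.13 CPM (log2 fold change -0.01). Elovl1, Elovl5, Fads1 and Fads2 had log2 fold changes between 0.02 and 0.23, and none passed.

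Per length, as the deposited FPKM give it, Scd2 was the most abundant member in Ad-GFP at 42.9 ± 2.08, followed by Fdps at 24.2 ± 1.22, Msmo1 at 23.2 ± 2.36 and Scd1 at 19.8 ± 2.76 FPKM. The lowest were Acacb at 0.477 ± 0.35, Stard4 at 0.857 ± 0.129 and Nsdhl at 1.18 ± 0.143 FPKM. Neighbours such as Fdps and Msmo1 did not differ beyond their spread. RSEM shares reads between similar transcripts, and 15 members had deposited counts with any decimal part other than 0 in at least 1 library, among them Scd1 and Acaca in all 9 and Scd2 in 8, so levels of near copies are uncertain.

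**Figure D3:**
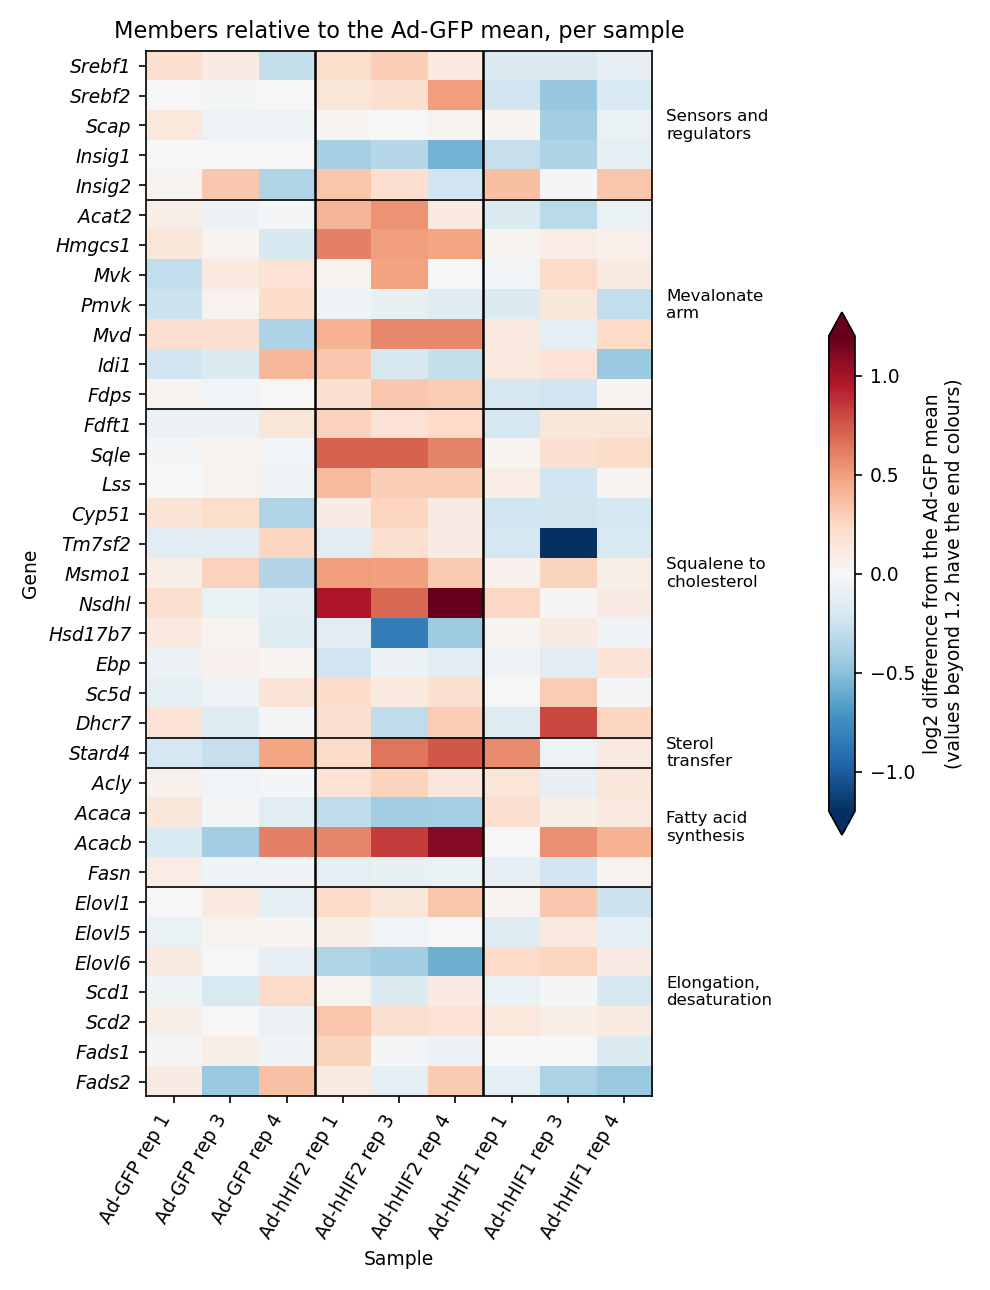
Heat map of the 35 members (rows, by role) in the 9 cultures (columns), coloured by the log2 difference from the Ad-GFP mean of that gene, red higher and blue lower. The red cells of Nsdhl, Sqle and Hmgcs1 and the blue cells of Insig1, Acaca and Elovl6 are in all 3 Ad-hHIF2 columns.

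The direction of the 3 genes that fell depends on how libraries are scaled. Scaled by total counts, with no correction for composition, the median gene moved by 0.24 on the log2 scale between Ad-GFP and Ad-hHIF2, and on log2(TPM + 1) and log2(TPM + 0.1) by 0.12 and 0.30. On all of these scales none of the 3 passed, and on both TPM scales their own values were at or above 0 (Insig1 0.01 and 0.0026, Elovl6 0.02 and 0.04, Acaca 0.11 and 0.24). Taken relative to the median gene, Insig1 was at -0.41, Elovl6 at -0.43 and Acaca at -0.36 by total counts. On log2(TPM + 1) the same differences were -0.11, -0.11 and -0.0188, and on log2(TPM + 0.1) they were -0.30, -0.26 and -0.06. The 6 genes that rose were above the median gene on each scale, by 0.28 to 0.99 with total counts, 0.19 to 0.53 on log2(TPM + 1) and 0.39 to 0.77 on log2(TPM + 0.1). All 6 kept their calls with total counts, but on log2(TPM + 1) only Nsdhl did, and on log2(TPM + 0.1) only Nsdhl and Sqle did. Calls over all genes also fell on these 2 scales, from 4416 to 1010 and 1109, so the loss is not particular to the members.

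Under HIF1 no member passed. Of the 35, 0 had an adjusted p below 0.05 (edgeR quasi-likelihood, 15233 genes tested), and of all genes tested 0% did. By DESeq2 and by limma-voom 0 members passed as well, and 2 members had an unadjusted p below 0.05 by each of the 3 tools, against 8.59% of all genes by edgeR. Over all genes DESeq2 called 138, limma-voom 5 and edgeR with no count filter 384. The study, with another test (EBSeq), reported genes that differed under HIF1 at a false discovery rate below 0.05 and at least 2-fold. The members' median log2 fold change was 0.03. Without Ad-hHIF1 replicate 3, 0 members passed. Their standard errors ran from 0.0755 to 0.375, so small changes could not be shown at this depth and spread. In 1 member (Scd2) the Ad-hHIF1 cultures all lay above the controls and in 4 (Srebf2, Insig1, Acat2 and Tm7sf2) all below, against 8.38% and 9.06% of all genes.

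Among the regulators, Srebf2 was at 49.4, 42.5 and 51.1 CPM in Ad-hHIF1, below the 3 controls, with a log2 fold change of -0.28 (SE 0.0846, adjusted p = 0.492). Insig1 was at 34.4, 32.3 and 38.6 CPM in Ad-hHIF1, also below the 3 controls, with -0.25 (SE 0.0832, adjusted p = 0.517). Srebf1 had -0.16, Scap -0.15 and Insig2 0.20, with overlapping groups. With 1 culture left out, Srebf1 ran from -0.29 to -0.06, Scap from -0.24 to -0.03 and Insig2 from 0.05 to 0.37. The members with the largest size of change were Tm7sf2 (-0.53), Dhcr7 (0.34), Fads2 (-0.34) and Acacb (0.29), with adjusted p from 0.7 to 0.804. Fads2, a desaturase, was at 3.61, 2.47 and 4.3 CPM in Ad-GFP and at 3.11, 2.58 and 2.48 in Ad-hHIF1, with overlapping groups, and its value was -0.16 without Ad-GFP replicate 4 and -0.54 without Ad-GFP replicate 3. Acacb was at 2.68, 3.9 and 3.58 CPM in Ad-hHIF1, within the control range, and its value was 0.08 without Ad-GFP replicate 3 and 0.64 without Ad-GFP replicate 4. Tm7sf2 and Dhcr7, both reductases late in the route, were set by 1 library. In Ad-hHIF1 replicate 3, the library rich in satellite-like counts, Tm7sf2 was at 1.31 CPM against 3.69 and 3.79 in the other Ad-hHIF1 cultures, and Dhcr7 was at 7.88 against 4.04 and 5.42. In Ad-GFP they were at 3.94, 3.91 and 5.1 CPM and at 5.11, 4.05 and 4.45 CPM. Without it their log2 fold changes were -0.19 and 0.07.

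**Figure D4:**
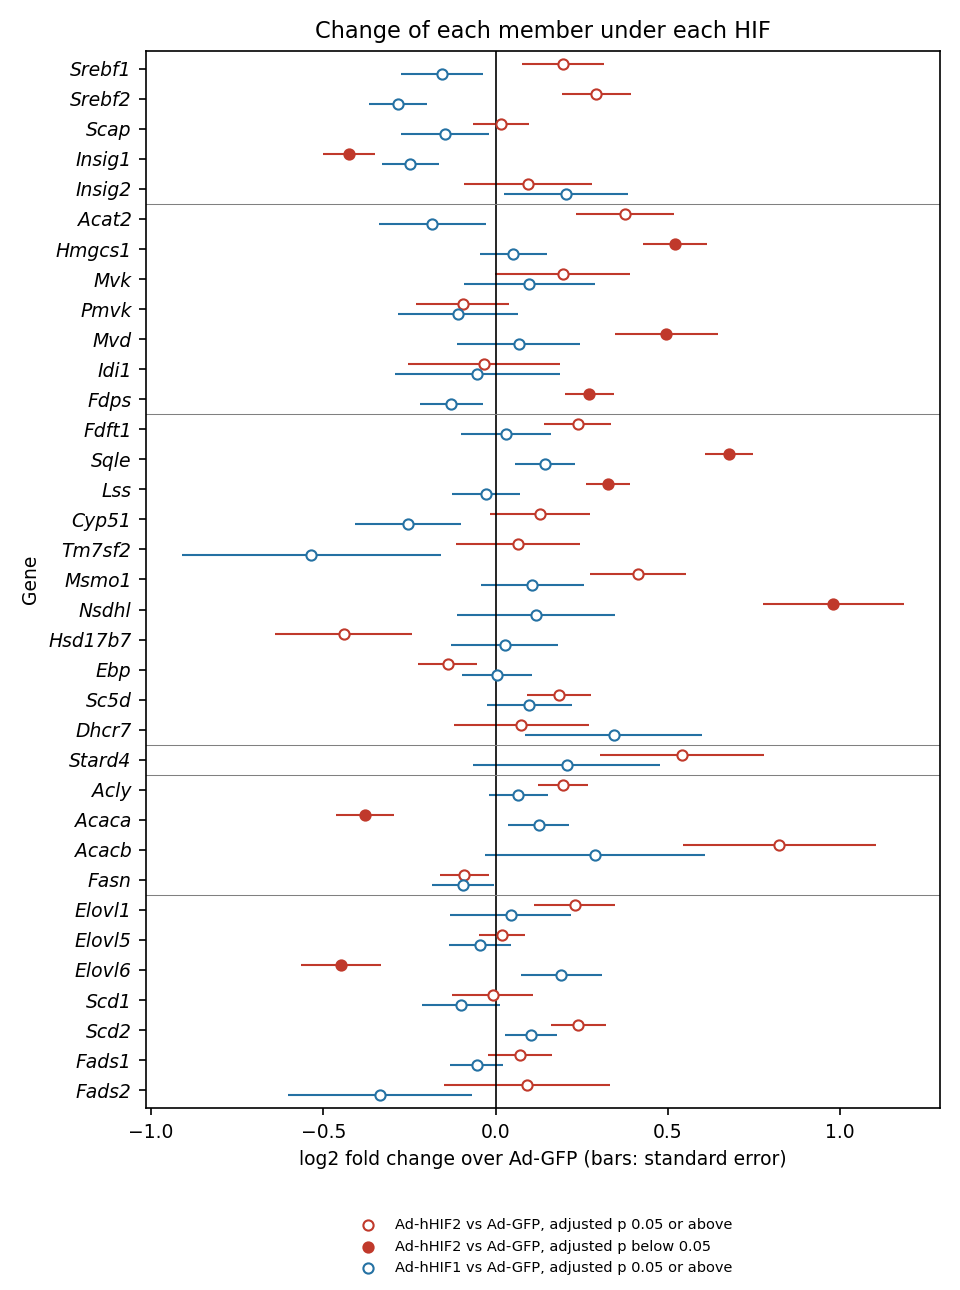
Log2 fold change over Ad-GFP of each member (rows, by role) for Ad-hHIF2 (red) and Ad-hHIF1 (blue), with the standard error as bars and filled points where the adjusted p was below 0.05. The 9 filled points are all red, from Nsdhl at 0.98 to Elovl6 at -0.45.

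Both comparisons use the same Ad-GFP cultures, so the HIFs were also compared directly, in a fit of all 9 cultures. In Ad-hHIF2 against Ad-hHIF1, 8 of 35 members were higher (22.9%), 2 were lower (5.71%) and 25 did not pass. Of the 15556 genes tested, 13.7% were higher and 12.0% lower, together 25.8%, against 28.6% of the members. Scaled by total counts only, 10 were higher and 0 lower, where 2900 of all genes were called in either direction, against 4008 before. The median of the members was 0.16. Nsdhl (0.86, adjusted p = 0.0105), Sqle (0.53, adjusted p = 0.000669), Hmgcs1 (0.47, adjusted p = 0.00329), Fdps (0.40, adjusted p = 0.0054) and Lss (0.35, adjusted p = 0.0138) were higher under HIF2, in log2 units. The Lss call was lost without Ad-hHIF2 replicate 1 (adjusted p = 0.0584). Mvd had 0.43 and did not pass (adjusted p = 0.0633).

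Both SREBP genes differed between the factors on counts. On both TPM scales none of the 10 member calls between the HIFs was kept, and calls over all genes fell from 4008 to 367 and 460. Srebf2 was 1.48-fold higher in Ad-hHIF2 than in Ad-hHIF1 (log2 fold change 0.57, SE 0.103, adjusted p = 0.00259). Srebf1, at 47, 46.8 and 49.2 CPM in Ad-hHIF1, was 1.27-fold higher in Ad-hHIF2 (log2 fold change 0.35, SE 0.111, adjusted p = 0.0431). That call was lost under 9 of the 16 alternatives, with a replicate block (adjusted p = 0.051) and in each fit that left out 1 culture among them, and that of Srebf2 only on the TPM scales (adjusted p up to 0.133). Acat2 was higher in Ad-hHIF2 (0.55, adjusted p = 0.0196), a call lost in 4 of the 6 fits that left out 1 culture (adjusted p up to 0.101). In these 2 members, Srebf2 and Acat2, all Ad-hHIF2 cultures lay above and all Ad-hHIF1 cultures below Ad-GFP, as in 1.48% of the 15556 genes, and with the opposite order also counted in 2.88%. Elovl6 was at 10.2, 10.4 and 9.36 CPM in Ad-hHIF1 and lower in Ad-hHIF2 (-0.64, SE 0.111, adjusted p = 0.00208), as was Acaca at 29.9, 27.5 and 28.4 CPM in Ad-hHIF1 (-0.51, SE 0.0811, adjusted p = 0.00133). Insig1 did not differ past the threshold (-0.18, SE 0.0833, adjusted p = 0.139).

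Genes that share the pathway but are not members were read from lists written with earlier results of these data known. Of 16 other genes of sterol and fatty acid supply, 15 were tested in Ad-hHIF2 against Ad-GFP, 2 rose, 2 fell and 11 did not pass, with a median of -0.04, against 15.9% higher and 13.6% lower of all genes. Me1, malic enzyme and a source of NADPH for lipid synthesis, rose from 134.3 ± 8.06 to 194.2 ± 9.75 CPM (log2 fold change 0.54, adjusted p = 0.00157). Mbtps1, the protease that makes the first cut in SREBPs, rose from 65.7 ± 0.988 to 77.7 ± 2.47 CPM (0.25, adjusted p = 0.0242), a call lost on both TPM scales (adjusted p = 0.242 and 0.24) and in 4 of the 6 fits that left out 1 culture (up to 0.078, without Ad-hHIF2 replicate 4). Elovl7, an elongase, fell from 13.9 ± 0.32 to 10 ± 0.16 CPM (-0.47, adjusted p = 0.00426), and Lpin1, a phosphatase of glyceride synthesis, fell from 8.16 ± 0.75 to 6.34 ± 0.398 CPM at the edge of the threshold (-0.36, adjusted p = 0.0495). The Lpin1 call was lost under 12 of the 16 alternatives, 5 of the 6 left-out cultures and the replicate block (adjusted p = 0.0613) among them.

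In genes of sterol export, storage and lipoprotein assembly, Abca1 rose by more than 2-fold, as did Abcg1, which was near the detection limit. Of 13, 9 were tested, 3 rose, 2 fell and 4 did not pass, against 15.9% higher and 13.6% lower of all genes. Abca1, the transporter that hands cholesterol to apolipoprotein A-I, was at 5.11, 3.38 and 3.75 CPM in Ad-GFP and at 25.4, 21.6 and 24.9 CPM in Ad-hHIF2. The groups were far apart, with a rise of 5.85-fold (log2 fold change 2.55, SE 0.157, adjusted p = 1.26e-05), and Ad-hHIF1 stayed at 3.78 to 4.86 CPM. Npc1, which releases cholesterol from lysosomes, was at 40.3, 42.2 and 48.5 CPM in Ad-GFP and at 77.3, 73.1 and 71.4 CPM in Ad-hHIF2, 1.70-fold higher (0.76, adjusted p = 0.000353). Abcg1, another sterol exporter, was at only 0.137 to 0.45 CPM in Ad-GFP and 0.589 to 0.96 in Ad-hHIF2 (3.24-fold, log2 fold change 1.70, adjusted p = 0.0416). Its call was lost under 10 of 15 alternatives, with adjusted p up to 0.211 and 0.0514 with a replicate block.

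Apob, the scaffold of chylomicrons and related particles, fell from 464.5 ± 4.94 to 360.2 ± 12.9 CPM (-0.36, adjusted p = 0.00787), and Soat2, which esterifies cholesterol in the gut, fell from 19.1 ± 2.03 to 15 ± 1.18 CPM (-0.35, adjusted p = 0.0392). The Soat2 call was lost with DESeq2 (adjusted p = 0.0668), with a replicate block (0.057), with all 9 samples in the fit (0.0614) and in 5 of the 6 fits that left out 1 culture (up to 0.158, without Ad-hHIF2 replicate 1). With libraries scaled by total counts only, the calls of Apob, Soat2, Lpin1 and Elovl7 were lost. Their log2 fold changes there were -0.11, -0.10, -0.10 and -0.22 (edgeR adjusted p = 0.714, 0.737, 0.769 and 0.44). On both TPM scales Apob, Soat2 and Lpin1 were above 0 (0.03 to 0.11), as was Elovl7 on log2(TPM + 1) (0.0037). Relative to the median gene on those scales all 4 stayed below 0, on log2(TPM + 1) and log2(TPM + 0.1) at -0.0251 and -0.19 for Apob, -0.0581 and -0.20 for Soat2, -0.0986 and -0.22 for Lpin1, and -0.12 and -0.31 for Elovl7, and none of them passed.

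**Figure D5:**
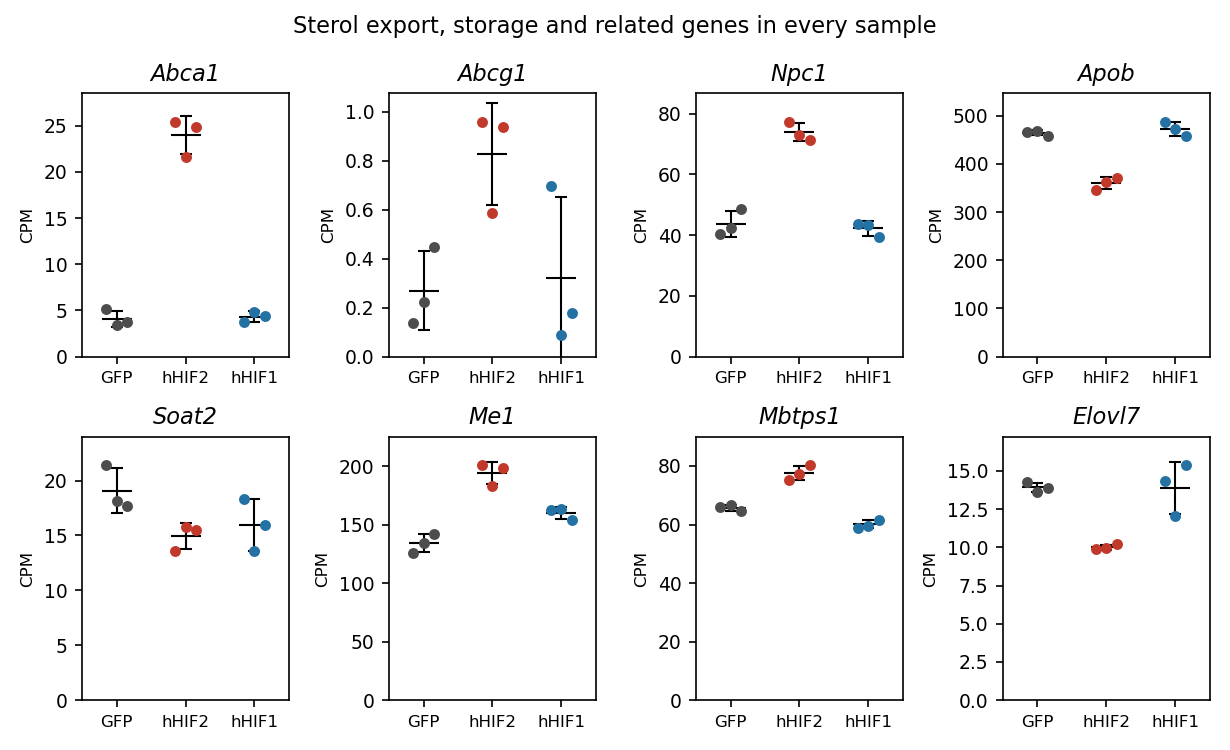
CPM in every culture (points) for 8 genes of sterol export, storage and related supply, with the group mean and SD (n = 3) as bars and axes from 0. Abca1 lies between 3.38 and 5.11 CPM in Ad-GFP and between 21.6 and 25.4 CPM in Ad-hHIF2.

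Markers of cell state moved with the HIF2 comparison as well. The summed level of 6 proliferation genes was 92.4 to 105.2 CPM in Ad-GFP, 68.6 to 77.9 in Ad-hHIF2 and 92.7 to 95.8 in Ad-hHIF1, and 2 of the 6 fell under HIF2 (Pcna -0.51, adjusted p = 0.00629, and Top2a -0.30, adjusted p = 0.0489), against 13.6% of all genes. The 6 goblet cell genes summed to 6.58 to 10.2 CPM in Ad-GFP and 3.66 to 4.28 in Ad-hHIF2, with 3 tested and Muc2 lower (-1.77, adjusted p = 0.000882). Muc2 made up nearly all of that drop, since the other 5 summed to 1.94 to 2.7 CPM in Ad-GFP and 2.01 to 2.79 in Ad-hHIF2, and Clca1 (-0.54) and Spink4 (0.51) did not pass. The 8 enterocyte genes summed to 5.15 to 7.65 and 8.63 to 9.83 CPM, with Alpi, Fabp1 and Sis near 0. Of the 5 tested Apoa4 alone rose, and without it the 7 others summed to 5.15 to 7.65 CPM in Ad-GFP and 6.18 to 7.02 in Ad-hHIF2, with Fabp2 at -1.67 (adjusted p = 0.0837) and Vil1 at -0.12 in log2 units. Of 3 stem cell genes tested Cd44 was lower (-0.31, adjusted p = 0.035), while Lgr5 (1.84, adjusted p = 0.0714) and Axin2 (1.02, adjusted p = 0.253) did not pass, so that the median of the 3 was 1.02. Of 2 immune genes Ptprc was lower and at most at 1.15 CPM (-3.92, adjusted p = 0.00472), and the more abundant Cd68, at 10.5 ± 2.91 CPM in Ad-GFP and 13.5 ± 2.1 in Ad-hHIF2, did not pass (0.38, adjusted p = 0.179). Cd68 was higher in Ad-hHIF2 than in Ad-hHIF1 (0.60, adjusted p = 0.0374). The 1 adipocyte gene tested, Cidec, was lower (-0.52, adjusted p = 0.0192). None of 2 tuft and 5 mesenchymal genes passed. Of 6 epithelial and 5 intestinal genes looked up later, 6 and 4 were tested. Cdh1 (0.53, adjusted p = 0.00313) and Gata4 (0.59, adjusted p = 0.00101) were higher, and Hnf4a (-0.50, adjusted p = 0.00471) and Epcam (-0.81, adjusted p = 0.0472) lower. Krt8, Krt18, Krt19, Cldn7, Cdx2 and Pdx1 did not pass, where 15.9% of all genes were higher and 13.6% lower. Paneth and enteroendocrine genes summed to at most 0.465 and 0.436 CPM in any library. The part of these markers in the changes of the synthesis genes was not tested.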

How the data were processed

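RNA was sequenced from 9 cultures of mouse duodenal organoids. Per the paper and the submitters' processing notes, the authors filtered the reads for quality before RSEM estimated transcript abundance. The aligner, genome build, annotation, RSEM version and strandedness are not given in the sources used here. The deposited expected counts are RSEM estimates and are not normalized. The deposited TPM and FPKM are scaled for effective length and library by RSEM and were used for alternatives and for levels between genes.

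Expected counts were rounded, filtered with filterByExpr, normalized by TMM and tested with edgeR 4.0.16 (quasi-likelihood, R 4.3.3) and Benjamini-Hochberg adjustment over all genes tested. Comparisons of either HIF with Ad-GFP used the 6 samples of the pair, and the comparison of the HIFs used all 9. EBSeq, which the study used, was not installed. Standard errors were derived from the F statistic. CPM use TMM factors over all 9 samples and are given as mean ± SD. Genes with an adjusted p below 0.05 were called. TPM were tested with limma 3.58.1, and DESeq2 1.42.0 and limma-voom were alternatives, as were other filters, scalings and left-out samples. The scripts were tested on simulated data. Gene positions are those of GENCODE M21, whose identifiers matched 46005 of 46517 genes. Promoters are from RefSeq, GRCm38.p6. Figures were drawn with matplotlib 3.10.9.

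The members and gene lists were chosen with earlier results of these data known. Values per sample were given for members called in Ad-hHIF2 against Ad-GFP, for the 5 regulators in that comparison, and for the 4 members that moved most under HIF1, and genes outside this rule are said to have been chosen after their values were seen. Msmo1, Acacb and Scd2 are given per sample because they were close to the threshold, and Abca1 and Npc1 because of the size of their change, choices made after seeing them. At most 6 called genes were named for each related list. No pair of libraries within a group was close enough in its counts to be a duplicate, and pairs across groups were not checked. Some genes of the related lists are not reported here by name.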

Additional observations from a re-analysis of the deposited data

Results flagged for a closer look

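Srebf2 and Acat2 stood out because every Ad-hHIF2 culture lay above and every Ad-hHIF1 culture below the Ad-GFP cultures, as did 1.48% of the 15556 genes tested. They were singled out for this pattern, so their difference between the HIFs is a description here. Srebf2 was at 57.6 to 58.4 CPM in Ad-GFP, 64.4 to 82 in Ad-hHIF2 and 42.5 to 51.1 in Ad-hHIF1, with a log2 fold change of 0.57 between the HIFs. Acat2 was at 5.35 to 5.9 CPM in Ad-GFP, 6.08 to 8.16 in Ad-hHIF2 and 4.47 to 5.29 in Ad-hHIF1, with a log2 fold change of 0.55 between the HIFs. Against Ad-GFP neither gene passed in edgeR as reported (adjusted p = 0.0581 for Srebf2 and 0.0803 for Acat2 under HIF2), but under HIF2 Srebf2 passed under 5 of the 16 alternatives, DESeq2 and the replicate block among them, and Acat2 under 2, library totals and the fit without Ad-hHIF2 replicate 4.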

How the results depend on the processing

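Ad-hHIF2 against Ad-GFP gave 6 members higher and 3 lower, with a median of 0.18. The higher count was 11 with no count filter, 13 with library totals only, 10 with DESeq2, 10 with limma-voom, 2 on log2(TPM + 1), 3 on log2(TPM + 0.1) and 0 with a 2-fold change required, and 4 to 10 when 1 culture was left out, with 10 without Ad-GFP replicate 4. The lower count was 0 with library totals, 0 on each TPM scale and 0 with 2-fold required. It was 1 to 3 when 1 culture was left out, with 1 without Ad-hHIF2 replicate 3. Over all genes, calls in either direction moved from 4416 to 5101 with no count filter, 4319 with library totals and 4240 with DESeq2. Limma-voom called 4616 genes, log2(TPM + 1) 1010, log2(TPM + 0.1) 1109, and the fits that left out 1 culture 3074 to 4539. No count filter and DESeq2 were run on 28836 genes, against 14987 in the main fit. The member counts are to be read against these totals. The median was 0.43 with library totals, 0.30 on log2(TPM + 1) and 0.52 on log2(TPM + 0.1), where the median of all genes moved to 0.24, 0.12 and 0.30. In Ad-hHIF1 against Ad-GFP the members' median of 0.03 became 0.11 with library totals, -0.0036 with limma-voom, 0.0789 and 0.206 on the TPM scales, and -0.0291 to 0.0239 when 1 culture was left out, and the counts of members called were 0 under every alternative run. In Ad-hHIF2 against Ad-hHIF1 the 8 higher members became 0 on each TPM scale, 0 with 2-fold required and 5 to 7 when 1 culture was left out, with 5 without Ad-hHIF2 replicate 1, and the 2 lower became 0 with library totals, on each TPM scale and with 2-fold required. The median of 0.16 there became 0.33 with library totals and 0.22 and 0.36 on the TPM scales. Over all genes the calls between the HIFs fell from 4008 to 2900 with library totals, and to 367 and 460 on the TPM scales. They were 2594 to 3624 when 1 culture was left out. Genes that fell under HIF2 had values above 0 on log2(TPM + 1) and log2(TPM + 0.1): Elovl6 0.0174 and 0.0418, Insig1 0.0133 and 0.0026, Acaca 0.11 and 0.24, Lpin1 0.0257 and 0.0789, Apob 0.10 and 0.11, and Soat2 0.0662 and 0.10. Elovl7 had 0.0037 on log2(TPM + 1). Relative to the median gene each of these stayed below 0 on both scales. The cause was not tested beyond the shift of the median gene.

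Nsdhl, Sqle, Hmgcs1, Lss and Insig1 kept their calls against Ad-GFP in each fit that left out 1 culture. DESeq2 kept 8 of the 9 calls and lost Elovl6, and limma-voom kept all 9. Library totals kept 6 and lost Insig1, Acaca and Elovl6. On log2(TPM + 1) only Nsdhl kept its call, and on log2(TPM + 0.1) Nsdhl and Sqle did.

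The groups share the replicate numbers 1, 3 and 4, which were taken only as names because the deviations of same-numbered cultures did not correlate above 0.1 in every pair. For Ad-hHIF2 with Ad-GFP they correlated at 0.075 to 0.139, above 0.1 in 1 of 3 pairs, against -0.136 to 0.064 for different numbers, and all 6 cultures correlated best with their own number, a hint from the data and not the design. For Ad-hHIF1 with Ad-GFP the ranges were -0.082 to 0.113 and -0.208 to 0.172, and for the 2 HIFs -0.178 to -0.061 and -0.113 to 0.194. With a replicate block, 9 members were higher and 3 lower in Ad-hHIF2 against Ad-GFP, with a median of 0.19. The 9 calls were kept and Srebf2, Msmo1 and Acacb gained. In that fit 4631 of all 14987 genes were called in either direction, against 4416 without the block. In Ad-hHIF2 against Ad-hHIF1 the block kept 9 of 10 calls and lost Srebf1, and 3638 of all genes were called, against 4008 without it.

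Depth limits the weakest members. Tm7sf2, Nsdhl, Fads2, Acacb and Stard4 had as few as 30 to 85 expected counts in a library.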

Other observations

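Some members differed per length (FPKM) in a way that their counts did not. FPKM divide by an effective length that RSEM estimates for each library. Acaca had 3.81 ± 0.473 FPKM in Ad-GFP and 6.06 ± 0.51 in Ad-hHIF1 (n = 3 each), while its counts were at 26.2 ± 2.38 and 28.6 ± 1.25 CPM. Scap ran from 4.83 to 5.06 FPKM in Ad-GFP and from 5.16 to 10.3 in Ad-hHIF2, with CPM of 18.7 to 21.3 and 19.5 to 20. Lss ranged from 6.23 to 13.1 FPKM among the controls, while its CPM ranged from 24.9 to 26.4. The FPKM themselves were not tested. On log2(TPM + 1) and log2(TPM + 0.1) Scap did not pass in Ad-hHIF2 against Ad-GFP (limma, adjusted p = 0.221 and 0.172). No member passed on these scales in Ad-hHIF1 against Ad-GFP (limma, smallest adjusted p = 0.2387 and 0.2385).

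Apoa4, a lipid-binding apolipoprotein of the intestine, was looked at after its value was seen. It was at 0, 0.0277 and 0 CPM in Ad-GFP, 2.22, 2.81 and 2.46 in Ad-hHIF2 and 0, 0 and 0.0511 in Ad-hHIF1 (Ad-hHIF2 against Ad-GFP, edgeR adjusted p = 5.51e-05).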
